A study of Mus musculus with 12 samples.

Results

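The genes described here are 10 regulators of meiotic arrest and maturation in the mouse oocyte: Gpr3, Pde3a, Wee2, Mos, Fbxo43, Ccnb1, Ccnb2, Ccnb3, Cdk1 and Cdc25b. They were chosen by name, as the rows of both expression tables that carry these symbols: 10 of the 55385 gene models of one table (PRC2) and of the 55401 of the other (PRC1). RNA-seq of oocytes isolated from ovaries gave 12 libraries, 2 in each of 6 groups, and the values are TPM, a per-length abundance that sums to 1000000 in every library. In the PRC2 table, control oocytes (EedF/+; Ddx4-Cre) stand beside a conditional knockout of Eed (cKO, EedF/-; Ddx4-Cre), each as non-growing oocytes at postnatal day 6 (P6) and as growing oocytes at postnatal day 7 (P7). In the PRC1 table, growing P7 control oocytes (Ring1-/-; Rnf2F/+; Ddx4-Cre) stand beside growing P7 oocytes whose label reads Ring1-/-; Ring1F/-; Ddx4-Cre and which are called PRC1 cKO as labelled, because that label names Ring1 for the floxed allele as well. Every group therefore carries Ddx4-Cre, a transgene that recombines in germ cells, and both PRC1 groups lack Ring1. Stage and postnatal day differ together, so growth and age cannot be told apart. In bulk oocyte libraries fewer cells of a kind and less RNA per cell cannot be told apart either.

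Oocytes enter meiosis before birth and stop in prophase, and they stay arrested while they grow. High cAMP, kept up by the receptor GPR3 and broken down by the phosphodiesterase PDE3A, holds CDK1 with its B-type cyclins inactive through the kinase WEE2, and the phosphatase CDC25B reverses that block when maturation starts. In maturing oocytes MOS activates the MAP kinase cascade, and FBXO43 (EMI2) restrains the anaphase-promoting complex (APC/C) so that the egg waits for the sperm.

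Eed, the targeted subunit of Polycomb repressive complex 2, was at 88.9 and 90.5 TPM in the 2 non-growing control libraries and 12.1 and 10.3 TPM in their PRC2 cKO counterparts. The growing control libraries held 62.3 and 60.5 TPM and the growing PRC2 cKO libraries 9.64 and 10.1 TPM, so Eed was low in every library labelled as a PRC2 knockout. Rnf2, a catalytic subunit of Polycomb repressive complex 1, was at 59.2 and 53.8 TPM in PRC1 control and at 87.8 and 61.4 TPM in PRC1 cKO. The level of Rnf2 was thus not lower in the libraries labelled PRC1 cKO, and the tables do not show whether its deleted part is read. All 10 oocyte markers examined, from Ddx4 to Zp3, were at 1 TPM or more in every group, and their summed level was 5358 to 7523 TPM in non-growing and 12533 to 18521 TPM in growing libraries. The summed level of 12 granulosa cell markers was 2.45 to 12.6 TPM outside PRC1 cKO and 22.9 to 35.0 TPM in PRC1 cKO. Gene models of GENCODE's TEC class, a class of unproven transcripts, took 2.26 to 2.57% of TPM in non-growing libraries, 20.9 to 25.9% in growing PRC2 and PRC1 control libraries and 11.0 to 14.9% in PRC1 cKO. TPM keeps no depth, so the depth behind each value is unknown. Separate animals are not stated for the 2 libraries of any group, so each p-value is set against library-to-library spread alone, which may be technical.

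The 10 genes differed widely in level, from under 1 TPM to 459 TPM, and their order changed with growth. In non-growing PRC2 control oocytes Cdk1 stood first at 454 ± 6.76 TPM (SD, n = 2), followed by Ccnb1 at 249.2 ± 0.601 TPM, Ccnb2 at 155 ± 1.66 TPM, Wee2 at 59.3 ± 1.81 TPM and Mos at 50.05 ± 1.14 TPM. Below them came Fbxo43 at 10.3 ± 0.113 TPM, Cdc25b at 9.80 ± 0.283 TPM, Pde3a at 3.97 ± 0.0778 TPM, Gpr3 at 1.65 ± 0.0566 TPM and Ccnb3 at 0.71 ± 0.156 TPM. The 2 libraries of each gene lay apart from those of the next gene at every step of this order. In growing PRC2 control oocytes Ccnb1 stood first at 350.5 ± 36.5 TPM and Mos second at 207 ± 5.94 TPM, while Ccnb2, Cdk1 and Wee2, at 177 ± 23.0, 166 ± 18.2 and 157 ± 12.8 TPM, overlapped in their libraries. Growing PRC1 control oocytes had the same first 6 genes in the same order, with Ccnb1 at 318 ± 14.5 TPM and Mos at 239.6 ± 28.3 TPM. In PRC1 cKO oocytes Cdk1 came second at 249 ± 34.7 TPM, after Ccnb1 at 387 ± 8.37 TPM, and Mos and Wee2 came after Ccnb2, at 107 ± 28.4 and 82.6 ± 0.870 TPM. The 2 tables were normalized separately, so levels of different tables are only set side by side. Over the 6 groups, 40 of the 54 neighbouring pairs in these orders had libraries that did not overlap.

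**Figure D1:**
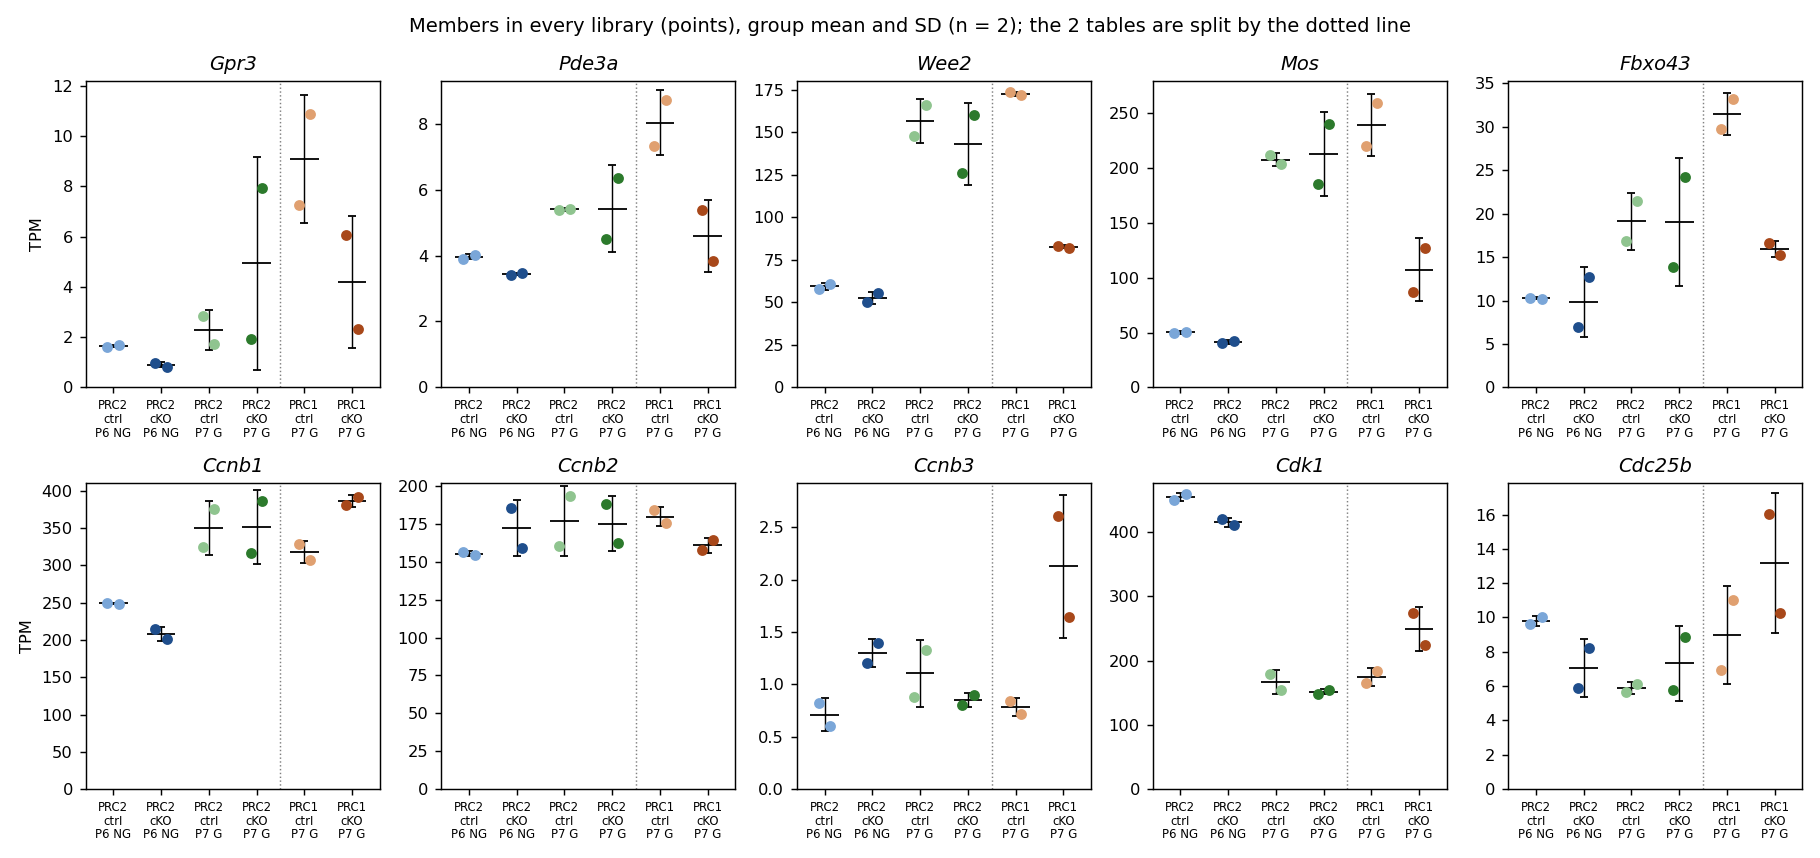
TPM (y axis, linear, from 0) of each of the 10 genes in every library; points are libraries, bars the mean and SD of 2 libraries, and the dotted line separates the PRC2 table from the PRC1 table. Wee2 and Mos are low in non-growing oocytes, high in growing control oocytes and, in the separately normalized PRC1 table, lower in PRC1 cKO than in its control, at 82.6 and 107 TPM, while Cdk1 runs the other way, from 454 TPM in non-growing to 166 TPM in growing PRC2 control oocytes.

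The proximal promoters of Cdk1, Ccnb1, Ccnb2 and Wee2 are shown as a description, and no link between their motifs and expression was tested. RefSeq gave a window of 250 bases before to 50 bases after the start site (GRCm38.p6) for 7 of the 10 genes, and Mos, Pde3a and Fbxo43 had no entry in the table used. The windows are Cdk1 at chr10:69352863-69353162 on the minus strand, Ccnb1 at chr13:100786437-100786736 on the minus strand, Ccnb2 at chr9:70421505-70421804 on the minus strand and Wee2 at chr6:40442613-40442912 on the plus strand, each printed 5′ to 3′ along the gene. Capitals mark CCAAT on either strand (ATTGG when it lies on the other strand) and the cell cycle elements TTTGAA and TTTAAA, and none of the marked matches overlap.
Cdk1: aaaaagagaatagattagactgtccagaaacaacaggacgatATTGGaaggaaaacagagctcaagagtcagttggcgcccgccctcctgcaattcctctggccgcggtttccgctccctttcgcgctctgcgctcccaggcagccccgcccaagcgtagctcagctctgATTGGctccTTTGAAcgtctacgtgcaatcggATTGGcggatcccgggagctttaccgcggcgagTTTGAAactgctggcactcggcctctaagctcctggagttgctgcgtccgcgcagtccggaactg
Ccnb1: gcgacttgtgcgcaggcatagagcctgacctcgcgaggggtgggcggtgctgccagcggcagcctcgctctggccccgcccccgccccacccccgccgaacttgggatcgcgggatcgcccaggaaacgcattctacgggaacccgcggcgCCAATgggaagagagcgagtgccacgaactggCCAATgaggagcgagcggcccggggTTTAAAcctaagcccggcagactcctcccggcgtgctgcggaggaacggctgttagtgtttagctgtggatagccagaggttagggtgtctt
Ccnb2: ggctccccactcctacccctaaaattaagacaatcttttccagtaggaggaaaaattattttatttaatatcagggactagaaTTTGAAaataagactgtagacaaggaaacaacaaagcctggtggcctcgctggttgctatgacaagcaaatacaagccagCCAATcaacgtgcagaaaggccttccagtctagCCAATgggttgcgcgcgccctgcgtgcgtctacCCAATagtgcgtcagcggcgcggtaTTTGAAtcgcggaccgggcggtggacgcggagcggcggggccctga
Wee2: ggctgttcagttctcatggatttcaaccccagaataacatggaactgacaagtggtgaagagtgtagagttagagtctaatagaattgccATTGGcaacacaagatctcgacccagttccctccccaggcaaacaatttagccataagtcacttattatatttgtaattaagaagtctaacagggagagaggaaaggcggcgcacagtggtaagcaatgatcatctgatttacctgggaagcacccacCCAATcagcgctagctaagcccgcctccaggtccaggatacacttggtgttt
The Cdk1 window held 3 CCAAT and 2 TTTGAA matches, of which the TTTGAA matches began 71 and 15 bases before the start site. Ccnb2 had the same counts, 3 CCAAT matches, beginning 87, 54 and 21 bases before the start site, and 2 TTTGAA matches. Ccnb1 held 2 CCAAT matches and 1 TTTAAA match. Wee2 held 2 CCAAT matches and none of the cell cycle elements, and its RefSeq start lies inside the longer gene span of the annotation used for the tables. Of 32851 mouse promoters of the same length, 37.4% held CCAAT, 17.9% TTTGAA and 13.2% TTTAAA on either strand. The windows of Cdk1, Ccnb1 and Ccnb2 held 24, 29 and 19 CpG and that of Wee2 held 5, against a median of 7 over all promoters. The E-box CANNTG, found in 72.3% of promoters, matched at 3 places in Wee2, and the NOBOX element TAATTG, found in 8.0%, matched in none of the 7 windows. A match describes the letters of the window and is no evidence of binding.

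The growth comparison asked how the arrest and maturation genes differ between non-growing and growing oocytes. In PRC2 control oocytes Mos, Wee2 and Ccnb1 rose and Cdk1 and Cdc25b fell, so 5 of the 10 genes passed, against 70.6% of all 14153 genes tested. For rises the count was 3 of 10 against 16.6% of all genes, and for falls 2 of 10 against 54.0%. Log2 fold changes are differences of log2(TPM + 1), which understate the change of low genes. The median change of the 10 genes was 0.33 on that scale and that of all tested genes was -0.67, and 9 of the 10 lay above the latter. Libraries of the 2 stages did not overlap for any of the 10 genes, 8 being higher and 2 lower in growing oocytes, against 22.5% and 66.2% of all genes.

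Mos (ENSMUSG00000078365, chromosome 4, 3870657 to 3872105, minus strand, GRCm38), the kinase that starts the MAP kinase cascade of the maturing oocyte, was at 49.2 and 50.85 TPM in non-growing and 212 and 203 TPM in growing PRC2 control oocytes. It had the largest rise of the 10 genes, a log2 difference of 2.03 (SE 0.13, limma adjusted p = 2.23e-05), about 4.08-fold in TPM + 1. Wee2 (ENSMUSG00000037159, chromosome 6, 40439088 to 40466813, plus strand), the oocyte kinase that inhibits CDK1, was at 58.05 and 60.6 TPM in non-growing and at 148 and 166 TPM in growing oocytes. Every growing library was above every non-growing library, and Wee2 rose by 1.38 (SE 0.14, limma adjusted p = 0.000125). The somatic relative Wee1 was at 7.79 ± 0.608 TPM in non-growing and 8.72 ± 0.226 TPM in growing control oocytes, so the Wee2 to Wee1 ratio within a library was 7.65 ± 0.829 before and 18.0 ± 1.94 during growth. Ccnb1 (ENSMUSG00000041431, chromosome 13, 100778650 to 100786570, minus strand), the main cyclin partner of CDK1, was at 249.7 and 249 TPM in non-growing and at 325 and 376 TPM in growing oocytes. Its rise of 0.49 (SE 0.12, limma adjusted p = 0.00912) was smaller than those of Mos and Wee2, and without growing control replicate 2 it was 0.38 and did not pass (limma adjusted p = 0.0565). Ccnb1 has 5 pseudogene copies of at least 90% identity, whose highest level in any library was 3.26 TPM, and the sources used here do not say how shared reads were assigned.

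Cdk1 (ENSMUSG00000019942, chromosome 10, 69335146 to 69352938, minus strand), the catalytic subunit of maturation-promoting factor, was at 449.5 and 459 TPM in non-growing and at 179 and 153 TPM in growing PRC2 control oocytes. It fell by 1.45 (SE 0.09, limma adjusted p = 2.23e-05), and this was the only fall that passed under each alternative run. Cdc25b (ENSMUSG00000027330, chromosome 2, 131186949 to 131198497, plus strand), the phosphatase that activates CDK1, was at 9.60 and 10 TPM before and at 5.65 and 6.12 TPM during growth. It fell by 0.65 (SE 0.23, limma adjusted p = 0.0394), but it did not pass without any 1 of the 4 control libraries (limma adjusted p = 0.0967 to 0.141), and with trimmed-mean scaling its change was 0.06, on the other side of 0.

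The other 5 genes did not pass in PRC2 control oocytes. Fbxo43 (ENSMUSG00000048230, chromosome 15, 36150060 to 36164884, minus strand), the APC/C inhibitor of the arrested egg, was at 10.3 and 10.2 TPM in non-growing and at 16.8 and 21.45 TPM in growing oocytes. Its difference was 0.83 (SE 0.33, limma adjusted p = 0.0573), and its growing libraries lay above its non-growing ones. Pde3a (ENSMUSG00000041741, chromosome 6, 141249269 to 141507448, plus strand) was at 3.91 and 4.02 TPM before and at 5.38 and 5.43 TPM during growth, a difference of 0.37 (SE 0.18, limma adjusted p = 0.111). Gpr3 (ENSMUSG00000049649, chromosome 4, 133209340 to 133212536, minus strand) was at 1.61 and 1.69 TPM before and at 2.84 and 1.73 TPM during growth, with the lower growing library next to the non-growing ones. Exons of Gpr3, Pde3a and Cdc25b overlap genes on the opposite strand (Cd164l2, Gm28523 and Spef1) over 7.46, 5.82 and 2.47% of their length, and the sources used here do not say whether counting used strand. Ccnb2 (ENSMUSG00000032218, chromosome 9, 70407692 to 70421547, minus strand), the second CDK1 partner, was at 157 and 154 TPM before and at 161 and 193 TPM during growth, a difference of 0.18 (limma adjusted p = 0.249). Ccnb3 (ENSMUSG00000051592, chromosome X, 6979652 to 7041619, minus strand), a cyclin that acts at the onset of anaphase in the first meiotic division, was the lowest of the 10 genes, at 0.82 and 0.60 TPM before and 0.88 and 1.33 TPM during growth.

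TPM is a share of the library, and scaling moved this comparison. With trimmed-mean scaling the median of all genes moved by 0.62 to -0.05, and 4102 genes were higher and 3966 lower, against 2346 and 7640 without it. Quantile normalization gave 3520 higher and 5116 lower, and scaling to nuclear protein-coding genes gave 3302 and 5480. Under each of these 3 scalings 8 of the 10 genes passed, 7 higher and 1, Cdk1, lower. With trimmed-mean scaling Mos was at 2.82, Wee2 at 2.18, Fbxo43 at 1.58, Ccnb1 at 1.28, Pde3a at 1.03, Ccnb2 at 0.98 and Ccnb3 at 0.69, and Cdk1 at -0.65 (limma adjusted p = 0.00362). Gpr3, at 0.83, did not pass (limma adjusted p = 0.156).

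In PRC2 cKO oocytes growth went with rises of 6 genes, Mos, Gpr3, Wee2, Fbxo43, Ccnb1 and Pde3a, and a fall of Cdk1, so 7 of 10 passed against 66.1% of all genes (20.1% higher and 46.0% lower). Mos was at 40.2 and 42.5 TPM in non-growing and at 186 and 239.6 TPM in growing cKO oocytes, a log2 rise of 2.32 (SE 0.13, limma adjusted p = 1.35e-05). Wee2 was at 50.02 and 55.2 TPM before and 126 and 160.1 TPM during growth, a log2 fold change of 1.42 (limma adjusted p = 0.000114). In both genes every growing cKO library was above every non-growing one, as in control oocytes. Ccnb1 was at 215 and 201 TPM before and at 316 and 386 TPM during growth and rose by 0.75 (SE 0.12, limma adjusted p = 0.00134). Cdk1 was at 419.8 and 410.2 TPM before and at 149 and 155 TPM during growth and fell by 1.45 (limma adjusted p = 2.05e-05), the size seen in control oocytes. These 4 calls held without each of the 8 libraries in turn. Libraries of the 2 stages did not overlap for 8 genes, 6 higher and 2 lower in growing oocytes, against 25.2% and 54.1% of all genes. The lower genes include Ccnb3, which met the filter on low values only through its non-growing cKO libraries.

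The calls of Gpr3, Pde3a and Fbxo43 in PRC2 cKO oocytes rested on the libraries used. Gpr3 was at 0.99 and 0.83 TPM before and at 1.94 and 7.94 TPM during growth, so that 1 growing library was far above the other. Its log2 fold change was 1.43 (SE 0.48, limma adjusted p = 0.0343), and without PRC2 cKO growing replicate 2, the higher library, it was 0.62 and did not pass (limma adjusted p = 0.0709). Pde3a was at 3.42 and 3.46 TPM before and 4.49 and 6.37 TPM during growth, a log2 fold change of 0.52 (limma adjusted p = 0.0405), and Fbxo43 was at 6.99 and 12.7 TPM before and 13.8 and 24.2 TPM during growth, a log2 fold change of 0.89 (limma adjusted p = 0.0486). Leaving out either non-growing or either growing PRC2 control library, or PRC2 cKO non-growing replicate 1 or growing replicate 2, ended the calls of all 3 genes (limma adjusted p between 0.0513 and 0.249). Leaving out PRC2 cKO non-growing replicate 2 ended the calls of Gpr3 and Pde3a only, at limma adjusted p = 0.116 and 0.112. Without PRC2 cKO growing replicate 1 all 3 calls held. Ccnb2, Ccnb3 and Cdc25b did not pass, with log2 fold changes of 0.03, -0.31 and 0.04. With trimmed-mean scaling the median of all genes moved by 0.42 to -0.03, the calls over all genes were 4265 higher and 4352 lower against 2844 and 6516, and 9 of the 10 genes passed, 8 higher and Cdk1 lower. Quantile normalization and scaling to nuclear protein-coding genes gave 3646 higher and 5371 lower, and 4074 higher and 4570 lower.

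**Figure D2:**
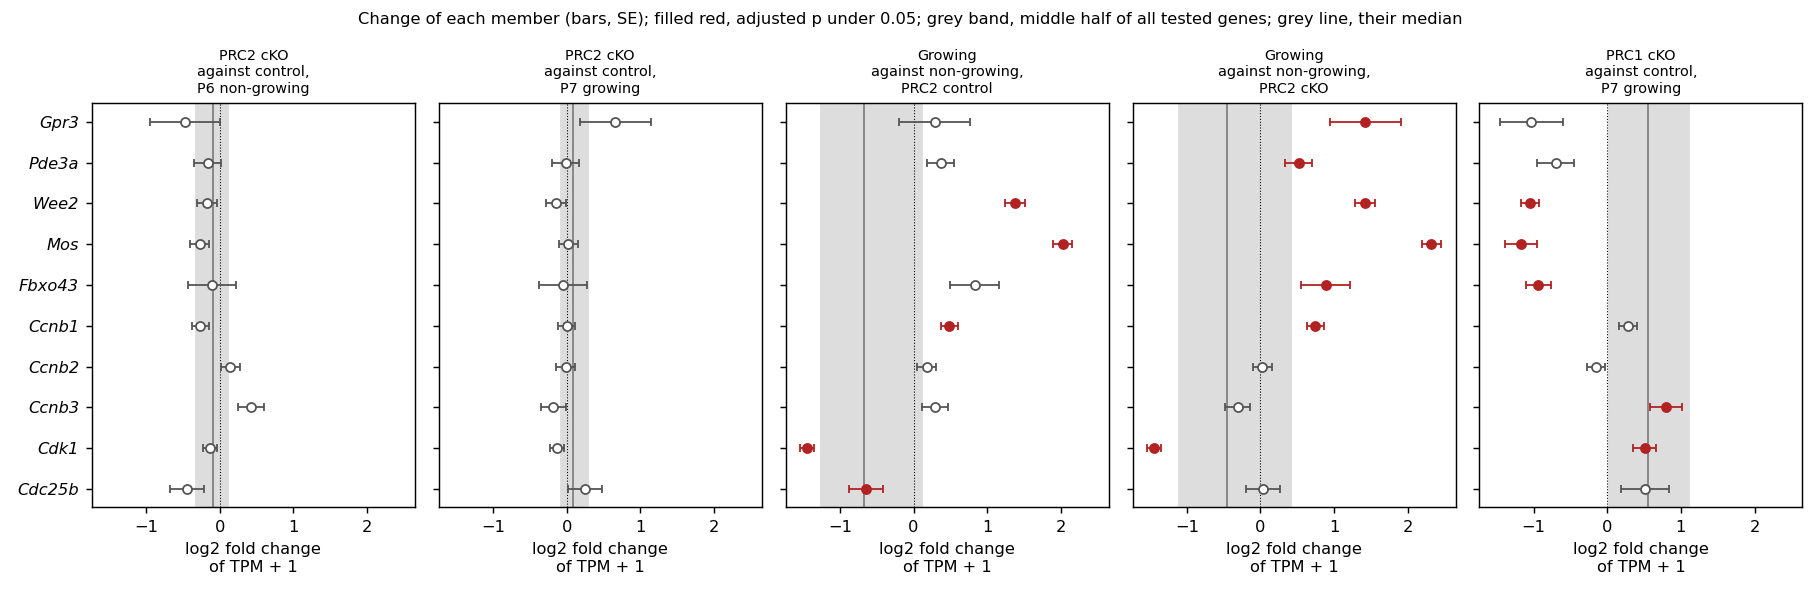
Log2 fold change of TPM + 1 (x axis) of each of the 10 genes (rows) in the 5 comparisons, with SE bars; filled red points have a limma adjusted p under 0.05, the grey band holds the middle 50% of all tested genes and the grey line is their median. Mos and Wee2 lie at 2.03 and 1.38 in the control growth comparison and at -1.17 and -1.05 in PRC1 cKO, outside the grey band in both, and no gene passes in PRC2 cKO against control.

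PRC2 cKO oocytes were compared with control at both stages. None of the 10 genes passed in non-growing oocytes (0 of 10 against 0.311% of all genes), in growing oocytes (0 of 10 against 0.170%) or in the difference of the knockout effects between stages (0 of 10 against 0.0989%) by limma. At an unadjusted p under 0.05 the counts were 1, 0 and 1 of the 10 genes, Ccnb3 both times, and 2316, 1407 and 2230 of all 14153 genes. Ccnb3 reached 1 TPM in 3 of the 8 PRC2 libraries and met the filter on low values only through its non-growing cKO libraries. Its place in these counts is therefore a description. With limma's robust and trend-free variants none of the 10 genes passed either. With 44, 24 and 14 genes called in all, the share called was near 0 for the 10 genes and for the genome alike.

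In non-growing oocytes 7 of the 10 genes had both PRC2 cKO libraries below both control libraries and 2 had both above, against 38.1% and 20.3% of all genes. Ccnb1 was at 249.7 and 249 TPM in control libraries and 215 and 201 TPM in cKO libraries, a log2 difference of -0.26 with a 95% interval from -0.55 to 0.02 (limma adjusted p = 0.329). Mos was at 49.2 and 50.85 TPM in control libraries and 40.2 and 42.5 TPM in cKO libraries, a log2 difference of -0.27 with an interval from -0.57 to 0.03 (limma adjusted p = 0.339). The 2 groups did not overlap in either gene, but the differences were small beside those of growth. Cdk1, at 449.5 and 459 against 419.8 and 410.2 TPM, had a log2 difference of -0.13 and an interval from -0.35 to 0.08. Wee2, at 58.05 and 60.6 against 50.02 and 55.2 TPM, had a log2 difference of -0.17 and an interval from -0.49 to 0.15. Ccnb3, at 0.82 and 0.60 against 1.20 and 1.39 TPM, was higher in both cKO libraries, with a log2 difference of 0.43 (limma adjusted p = 0.301). It was tested only because these cKO libraries exceeded 1 TPM, so its difference and its place in the count above are a description. Ccnb2, at 157 and 154 against 186 and 159 TPM, was the other gene with both cKO libraries above control. The intervals of Fbxo43 and Gpr3 were wider, from -0.89 to 0.68 and from -1.62 to 0.67.

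In growing oocytes the PRC2 cKO and control libraries overlapped for each of the 10 genes, while 36.5% of all genes did not overlap. Mos was at 212 and 203 TPM in control libraries and 186 and 239.6 TPM in cKO libraries, and the interval of its log2 difference ran from -0.28 to 0.33. Wee2 was at 148 and 166 TPM in control libraries and 126 and 160.1 TPM in cKO libraries, with an interval from -0.46 to 0.18. For both genes PRC2 cKO replicate 1 lay below the control libraries' mean and replicate 2 above it. Cdk1 was at 179 and 153 against 149 and 155 TPM, with an interval from -0.34 to 0.09, and Ccnb1 at 325 and 376 against 316 and 386 TPM, with an interval from -0.28 to 0.28. PRC2 cKO growing replicate 2 was the higher cKO library for 9 of the 10 genes, and the share of all genes higher in it was not counted. The median log2 difference of all tested genes was 0.14 without PRC2 cKO growing replicate 1 and 0 without replicate 2. In the difference of effects between stages Gpr3 passed in 1 setting, without PRC2 cKO growing replicate 1, at 1.94 (limma adjusted p = 0.0420), a setting in which 842 genes were called against 14 with all libraries.

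The PRC1 comparison was made in growing oocytes that all lack Ring1. In PRC1 cKO oocytes Wee2, Mos and Fbxo43 fell and Cdk1 rose, and Ccnb3 was also called higher, so 5 of 10 passed against 47.8% of all 14941 genes. For falls the count was 3 of 10 against 6.45% of all genes, and for rises 2 of 10 against 41.3%. Ccnb3 passed the filter on low values only through its PRC1 cKO libraries, and without it 4 of 9 genes passed, 3 lower and 1 higher. The median of the 10 genes was -0.43 and that of all tested genes was 0.55, and 9 of the 10 lay below the latter. Both PRC1 cKO libraries lay below both controls for 6 genes (15.2% of all genes) and above them for 3 (62.3%), and Cdc25b overlapped.

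Wee2 was at 173 and 172 TPM in PRC1 control and at 83.25 and 82.02 TPM in PRC1 cKO. The libraries of each group were within 2 TPM of each other, and Wee2 fell by 1.05 (SE 0.12, limma adjusted p = 0.00384), which is 2.08-fold lower in TPM + 1. Its call held without each of the 4 libraries and under each scaling. Mos was at 219.6 and 259.5 TPM in control libraries and 87.3 and 127 TPM in cKO libraries, both cKO libraries being far below both controls. It fell by 1.17 (SE 0.22, limma adjusted p = 0.0120), and without control replicate 2 it was at the edge of the threshold (limma adjusted p = 0.0496). Fbxo43 was at 29.8 and 33.2 TPM in control libraries and 16.6 and 15.3 TPM in cKO libraries. It fell by 0.94 (SE 0.17, limma adjusted p = 0.0109), but it did not pass without control replicate 1 or without control replicate 2 (limma adjusted p = 0.0724 and 0.0850). Without either of these the calls over all genes were 2953 and 4223, against 7140 with all libraries.

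Cdk1 was at 164 and 184 TPM in PRC1 control and at 273 and 224 TPM in PRC1 cKO, the cKO libraries being higher. Its rise of 0.51 (SE 0.16, limma adjusted p = 0.0471) was close to the median of all genes, and with trimmed-mean scaling it was -0.15 and did not pass (limma adjusted p = 0.404). It also did not pass without either control library or without cKO replicate 1 (limma adjusted p = 0.143 to 0.261). Ccnb3 was at 0.84 and 0.72 TPM in control libraries and 2.61 and 1.64 TPM in cKO libraries, and it was tested only because its cKO libraries exceeded 1 TPM, so its difference of 0.80 (SE 0.22, limma adjusted p = 0.0351) is given as a description. The call was lost without either control library or without cKO replicate 1 (limma adjusted p = 0.0614 to 0.158), and with quantile normalization its change was -0.11.

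Pde3a and Gpr3, the genes on the 2 sides of oocyte cAMP, had lower libraries in PRC1 cKO without passing. Pde3a was at 7.33 and 8.73 TPM in control libraries and 5.37 and 3.83 TPM in cKO libraries, a difference of -0.70 (SE 0.25, limma adjusted p = 0.0727). Gpr3 was at 7.28 and 10.9 TPM in control libraries and 6.06 and 2.34 TPM in cKO libraries, a difference of -1.03 (SE 0.43, limma adjusted p = 0.103). The groups did not overlap in either gene, and the spread was large in both groups. The SDs in control and cKO were 0.990 and 1.09 TPM for Pde3a and 2.56 and 2.63 TPM for Gpr3. Ccnb1 was at 328 and 308 TPM in control libraries and 381 and 392 TPM in cKO libraries, a difference of 0.28 (SE 0.12, limma adjusted p = 0.109) that turned to -0.37 with trimmed-mean scaling. Ccnb2 was at 184 and 175 TPM in control libraries and 158 and 164 TPM in cKO libraries, a difference of -0.16 (limma adjusted p = 0.322). The 2 cyclins thus lay on opposite sides of control in TPM, and their ratio within a library, Ccnb1 to Ccnb2, was 1.77 ± 0.0193 in control and 2.40 ± 0.0186 in cKO. Cdc25b was at 6.94 and 11.0 TPM in control libraries and 16.05 and 10.3 TPM in cKO libraries, a difference of 0.51 (limma adjusted p = 0.248) that turned to -0.09 with trimmed-mean scaling and with quantile normalization.

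With trimmed-mean scaling the median of all genes moved by -0.56 to -0.01, and the calls over all genes were 3385 higher and 3028 lower, against 6176 and 964 without it. Quantile normalization gave 2722 higher and 2636 lower, and scaling to nuclear protein-coding genes 5052 and 1512. With trimmed-mean scaling and with quantile normalization 6 of the 10 genes passed, all lower, namely Wee2, Mos, Fbxo43, Gpr3, Pde3a and Ccnb2. With nuclear protein-coding scaling 4 passed, all lower, namely Wee2, Mos, Fbxo43 and Pde3a, while Gpr3 and Ccnb2 did not (limma adjusted p = 0.0594 and 0.0584). With trimmed-mean scaling Mos was at -1.82, Wee2 at -1.71, Gpr3 at -1.60, Fbxo43 at -1.57, Pde3a at -1.27 and Ccnb2 at -0.81. The granulosa marker sum was 8.53 to 12.6 TPM in PRC1 control and 22.9 to 35.0 TPM in PRC1 cKO, with 1 and 5 of 12 markers at 1 TPM or more in both libraries. Inha made up the largest part of the PRC1 cKO sum, with 17.2 and 10.9 TPM against 0.59 and 2.68 TPM for the control libraries. Nr5a2, the most abundant of these markers in control, went the other way, with 3.77 and 4.04 TPM in cKO against 6.4 and 6.62 TPM. Of the 5 granulosa markers tested, 3 passed as higher and 0 as lower, against 41.3% and 6.45% of all genes. Among these 5 only Nr5a2 reached 1 TPM in both control libraries. The others, such as Inhba (0.17 and 0.16 TPM in control, 3.60 and 2.26 TPM in cKO), met the filter on low values only with cKO libraries. The count is therefore a description. Foxl2, which defines granulosa cells, was listed at 0 in both control libraries and stayed low in cKO, at 0.19 and 0.14 TPM. Summed over 10 markers of dividing cells, control libraries held 1253 to 1364 TPM and cKO libraries 1438 to 1465 TPM. Birc5 made up most of this sum, and the median log2 difference of the list was -0.02, against 0.55 for all genes. Of these 10 markers 1 passed as higher and 0 as lower, against 41.3% and 6.45% of all genes. The oocyte marker sum was 17300 to 18521 TPM for control and 12533 to 12944 TPM for cKO. Of its 10 markers 3 passed as higher and 3 as lower, against the same 41.3% and 6.45% of all genes. Both cKO libraries lay below both controls for Zp1, Zp3, Gdf9 and Bmp15 and above them for Ddx4, Dazl, Figla and Nobox. Over all genes the shares were 15.2% below and 62.3% above. The part of these differences in the values of the 10 genes was not tested.

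**Figure D3:**
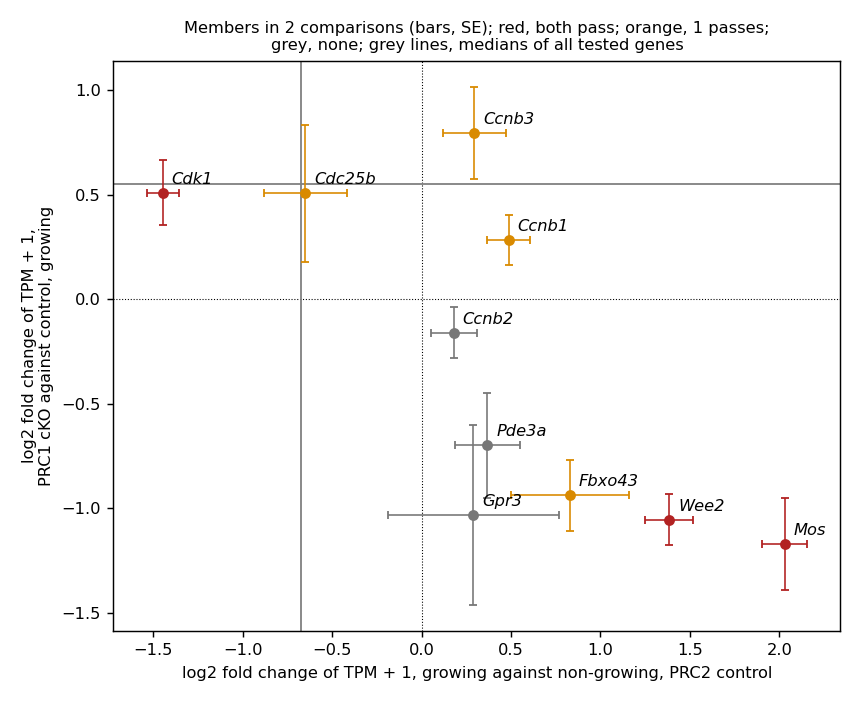
Log2 fold change of TPM + 1 of the 10 genes in growing against non-growing PRC2 control oocytes (x axis) and in PRC1 cKO against control growing oocytes (y axis), with SE bars; red points pass in both, orange in 1 and grey in none, and grey lines are the medians of all tested genes. Wee2 and Mos lie at the lower right, at 1.38 and 2.03 against -1.05 and -1.17, and Cdk1 at the upper left, at -1.45 against 0.51, although its PRC1 value turns to -0.15 with trimmed-mean scaling.

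The growth and PRC1 comparisons share no library, and their values can be set side by side. Wee2 and Mos rose with growth in PRC2 control and fell in PRC1 cKO, and Cdk1 fell with growth and rose in PRC1 cKO, where its direction depended on the scaling as given above. Ccnb1 rose with growth and did not pass in PRC1 cKO, and Fbxo43 passed in PRC1 cKO and not in the control growth comparison.

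Ratios of 2 genes within a library do not depend on how that library was scaled, and they can be read in both tables. The Wee2 to Cdk1 ratio of TPM was 0.131 ± 0.00204 in non-growing PRC2 control oocytes (SD, n = 2) and 0.952 ± 0.181 in growing ones. In PRC1 control it was 0.995 ± 0.0859, and in PRC1 cKO it was 0.335 ± 0.0432. The growing PRC1 cKO libraries lay between the non-growing and the growing control libraries. The Mos to Cdk1 ratio ran likewise, at 0.110 ± 0.000867 and 1.25 ± 0.102 in non-growing and growing PRC2 control and at 1.37 ± 0.0527 and 0.444 ± 0.176 in PRC1 control and cKO. The Ccnb1 to Cdk1 ratio was 0.549 ± 0.00949 in non-growing and 2.13 ± 0.453 in growing PRC2 control, whereas PRC1 control and cKO overlapped at 1.84 ± 0.230 and 1.57 ± 0.252. The Wee2 to Ccnb1 ratio was 0.238 ± 0.00784 and 0.448 ± 0.0101 in non-growing and growing PRC2 control, 0.544 ± 0.0213 in PRC1 control and 0.214 ± 0.00688 in PRC1 cKO, so the PRC1 cKO libraries were below all others. The balance of the CDK1 kinase and phosphatase, Wee2 to Cdc25b, was 6.05 ± 0.00999 and 26.6 ± 0.674 in non-growing and growing PRC2 control and 20.3 ± 6.62 and 6.59 ± 1.98 in PRC1 control and cKO. The Mos to Wee2 ratio, 1.39 ± 0.173 in PRC1 control, stood at 1.301 ± 0.358 in PRC1 cKO, with overlapping libraries. In PRC2 cKO the ratios of Wee2 and Mos to Cdk1 overlapped the control ratios in growing oocytes, at 0.941 ± 0.133 and 1.40 ± 0.212. In non-growing oocytes Wee2 to Cdk1 overlapped as well, but Mos to Cdk1 was 0.0959 and 0.104 in PRC2 cKO against 0.110 and 0.111 in control, and Ccnb1 to Ccnb2 was 1.16 and 1.26 against 1.59 and 1.61. Differences of ratios were not tested in any comparison.

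**Figure D4:**
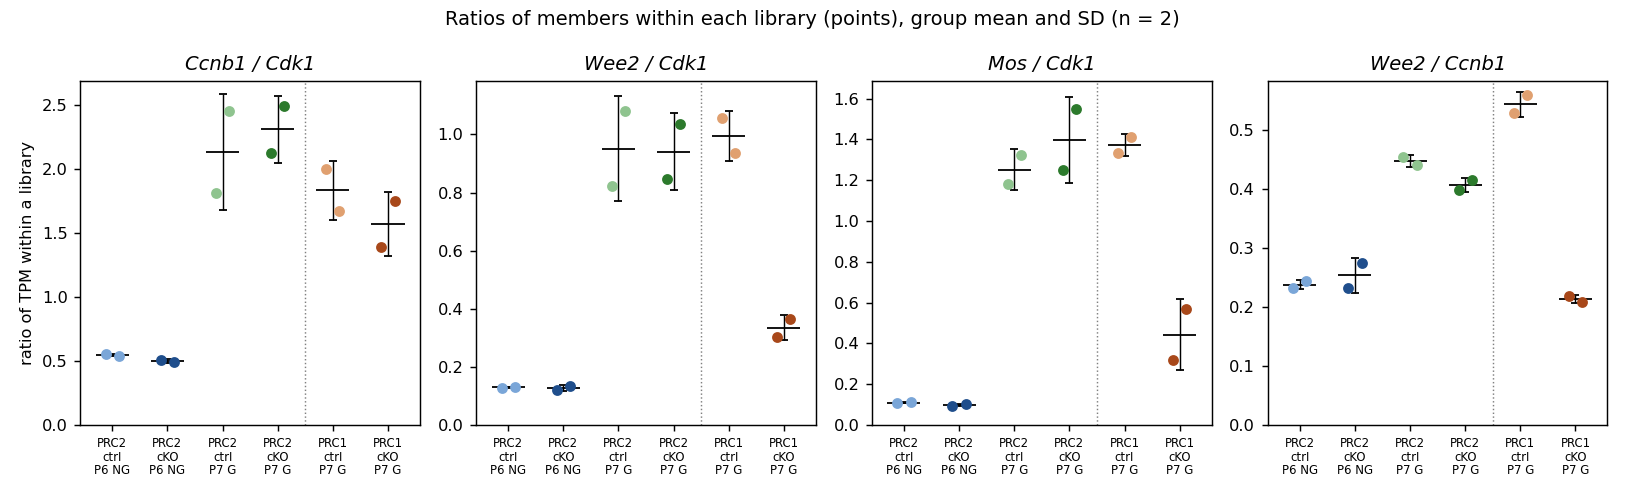
Ratio of TPM of 2 genes within each library (y axis, linear, from 0) for Ccnb1 to Cdk1, Wee2 to Cdk1, Mos to Cdk1 and Wee2 to Ccnb1; points are libraries and bars the mean and SD of 2 libraries. Wee2 to Cdk1 is 0.131 in non-growing and 0.952 in growing PRC2 control oocytes, and 0.995 in PRC1 control and 0.335 in PRC1 cKO.

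Other genes of the same pathways were examined in 4 lists of 63 genes in all. With growth in PRC2 control, 3 of 19 further CDK1 regulators rose and 8 fell, and 4 of 24 genes of the APC/C and spindle checkpoint rose and 14 fell, against 16.6% and 54.0% of all genes. Of 8 tested genes of cAMP signalling 2 rose and 4 fell, and of 6 tested genes of the MAP kinase cascade none rose and 3 fell. The medians were -0.27, -0.79, -0.42 and -0.37, against -0.67 for all genes. These counts turned with scaling: with trimmed-mean scaling 9 genes of the CDK1 list were higher and 3 lower, 10 and 9 of the APC/C list, 4 and 1 of the cAMP list and 3 and 0 of the MAP kinase list, against 29.0% and 28.0% of all genes. The 6 genes of these lists named next passed in the same direction under each of the 3 scalings. Bub1b, a spindle checkpoint kinase, was at 10.5 ± 1.20 TPM in non-growing and 45.3 ± 9.15 TPM in growing oocytes and rose by 2.00 (limma adjusted p = 0.00150). Cdc27, an APC/C subunit, rose by 1.39 and Fbxo5 (EMI1), the relative of Fbxo43, rose by 1.22 (limma adjusted p = 0.000274 and 0.000425). Anapc13, another APC/C subunit, fell by 2.05, Ppp3ca, a calcineurin catalytic subunit, fell by 1.94 and Prkacb, a catalytic subunit of the cAMP-dependent kinase, fell by 1.79. In PRC2 cKO oocytes the counts of rises and falls with growth were 4 and 10 for the CDK1 list, 4 and 10 for the APC/C list, 2 and 3 for cAMP and 2 and 2 for the MAP kinase cascade, against 20.1% and 46.0% of all genes. With trimmed-mean scaling they were 7 and 5, 9 and 7, 3 and 2, and 2 and 0, against 30.1% and 30.7%. In both genotypes the falls of the CDK1 list include Ccna1, an A-type cyclin at 0.69 to 1.68 TPM in non-growing and at most 0.22 TPM in growing PRC2 libraries. It passed the filter on low values only through non-growing libraries. Without it 7 of 18 CDK1 regulators fell in PRC2 control and 9 of 18 in PRC2 cKO. Bub1b was at 7.35 and 8.08 TPM before and at 36.6 and 77.5 TPM during growth in PRC2 cKO oocytes and rose by 2.64 (limma adjusted p = 0.000422). Mapk3 (ERK1), a target of the Mos cascade, was at 7.95 and 13.2 TPM before and at 41.6 and 96.9 TPM during growth and rose by 2.52 (limma adjusted p = 0.00129), and Plk1, a mitotic kinase that acts on CDK1 regulators, rose by 1.96 (limma adjusted p = 0.00195). The falls by size were those of Anapc13, from 363 and 341 to 74.0 and 63.6 TPM, a fall by 2.34 (limma adjusted p = 1.32e-05), Spdya, a CDK activator, which fell by 1.53, and Cdc23, an APC/C subunit, which fell by 1.53 (limma adjusted p = 0.00165 and 5.51e-05). These 6 calls held in the same direction under each of the 3 scalings. Gpr12, a receptor close to Gpr3, was listed at 0 in all PRC2 libraries and was at most 0.36 TPM in the PRC1 table.

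None of these genes passed in PRC2 cKO against control at either stage or in the difference between stages, as for the 10 regulators. The smallest p-values belonged to Camk2g, the calmodulin kinase of egg activation, with 20.6 and 20.3 TPM in the control and 11.5 and 11.7 TPM in the PRC2 cKO libraries of non-growing oocytes (log2 difference -0.77, limma adjusted p = 0.138), and to Rps6ka3 (RSK2), at 9.58 and 10.1 against 6.93 and 6.78 TPM in growing oocytes (log2 difference -0.46, limma adjusted p = 0.377). In both genes the 2 groups did not overlap, but they were picked by smallest p. Of all genes, 38.1% were lower without overlap in non-growing oocytes and 36.5% did not overlap in either direction in growing ones. Next came Anapc11, an APC/C subunit, with a log2 difference of -0.34 in non-growing oocytes (limma adjusted p = 0.228), and Ube2c, the ubiquitin-conjugating enzyme of the APC/C, with -0.29 in growing oocytes (limma adjusted p = 0.391). In the difference between stages the smallest p-values were those of Rps6ka3 and Cks1b, a CDK-binding subunit, at -0.71 and -0.40 (limma adjusted p = 0.305 for both).

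In PRC1 cKO, 5 of the 19 CDK1 regulators rose and 3 fell, 6 of 24 APC/C and checkpoint genes rose and 4 fell, 2 of 9 cAMP genes rose and none fell, and none of 6 MAP kinase genes passed, against 41.3% higher and 6.45% lower of all genes. With trimmed-mean scaling the numbers higher and lower were 3 and 7, 1 and 11, 0 and 0, and 0 and 2, against 22.7% and 20.3% of all genes, so the balance of the CDK1 and APC/C lists turned. The 6 genes that passed and are named next kept their direction under each of the 3 scalings, and of them Spdya did not pass with quantile normalization (limma adjusted p = 0.0609). Ccna1, the germ cell cyclin, had a listed level of 0 in the 2 PRC1 control libraries and was at 4.70 and 5.69 TPM in PRC1 cKO. It passed the filter only through the cKO libraries and is given as a description, and without it 4 of 18 CDK1 regulators rose. Cdc25c, a phosphatase of the Cdc25b family, was at 11.6 and 11.1 TPM in control libraries and 28.1 and 30.5 TPM in cKO libraries and rose 2.45-fold in TPM + 1 (limma adjusted p = 0.00508). Spdya was at 2.04 and 2.51 TPM in control libraries and 7.82 and 6.96 TPM in cKO libraries and rose by 1.36 (limma adjusted p = 0.00818). Mastl (Greatwall), the kinase that restrains the phosphatase opposing CDK1, was at 80.5 and 78.4 TPM in control libraries and 33.5 and 46.3 TPM in cKO libraries and fell by 0.99 (limma adjusted p = 0.0136). Bub1b fell by 0.89 (limma adjusted p = 0.0180), and Cdc14b, a phosphatase, fell by 0.70 (limma adjusted p = 0.0463). Wee1 was at 10.7 and 9.93 TPM in control libraries and 9.54 and 10.7 TPM in cKO libraries, with overlapping libraries, so the Wee2 to Wee1 ratio was 16.7 ± 0.818 in control and 8.18 ± 0.770 in cKO.

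Over the 8 PRC2 libraries the genes of most similar pattern were found among 7499 named genes with a mean of at least 5 TPM, by the root mean square difference of log2(TPM + 1) after centring. For Wee2 the nearest were Cul1, at 0.0387 on the log2 scale, and Nsun4, at 0.0451, and for Mos they were Zfp709 at 0.0477 and Thsd7a at 0.0836. Cdk1 was nearest to Nop14 at 0.0468 and Ptma at 0.0528, Ccnb1 to Kpna3 at 0.0488 and Fbxo8 at 0.0570, and Cdc25b to Atf7ip at 0.0470 and Plxna4 at 0.0607. Pde3a was nearest to Stx12 at 0.0559 and Scamp1 at 0.0568, and Ccnb3 to Nudcd1 at 0.0695 and Ttc32 at 0.0997. Ccnb2 was nearest to Sgo2a, a protector of centromeric cohesion, at 0.0769 and Enpp5 at 0.0820. By this measure Fbxo43 and Gpr3 had the least close neighbours. They were Twsg1 at 0.142 and Kif2c, a microtubule depolymerase, at 0.149 for Fbxo43, and Carmil1 at 0.119 and Slc26a6 at 0.157 for Gpr3. By Pearson correlation the order differed, at 0.786 and 0.812 for the neighbours of Ccnb2, 0.963 and 0.993 for those of Fbxo43 and 0.984 and 0.98 for those of Gpr3.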

How the data were processed

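Per the labels' protocols, oocyte RNA came from RNeasy Plus Micro columns, NEBNext Single Cell/Low Input chemistry made the libraries, and an Illumina HiSeq read them as pairs of 150 bases. The TPM values are as the authors deposited them, in 2 tables that were treated as normalized separately. The submitters' processing notes name RSEM 1.3.3, Subread 2.0.3, HISAT2, SAMtools and Trim Galore 0.6.10 with GRCm38 (mm10), and the sources used here do not say which of them gave TPM. TPM holds no depth, so no count test was possible.

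Genes at 1 TPM or more in at least 2 libraries of a table (14153 and 14941) were tested as log2(TPM + 1) with limma 3.58.1 in R 4.3.3 (eBayes with a trend, all groups of a table in 1 fit, two-sided, Benjamini-Hochberg over all tested genes, threshold 0.05). All 10 genes were tested in both tables. Levels are mean ± SD over 2 libraries, and 95% intervals are from the limma fit. The fit was tested on simulated data. The text names all 10 genes, the targeted genes and, of each comparison's pathway lists, up to 3 passing genes in each direction by size, or the 2 of smallest p where none passed. Genes of similar pattern are the 2 nearest to each. The genes, lists and markers were chosen with earlier results of these data known. Copies were found with blastn 2.17.0 (at least 200 aligned bases), and motifs were counted in RefSeq promoters with Python 3.11.15. Same-numbered libraries of the PRC2 table deviated together in 1 of 6 pairs of groups, cKO non-growing and growing (correlation 0.260), and the other 5 correlations were -0.0297 to 0.0577, so replicate numbers were not taken to pair libraries.

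Alternatives were pseudocounts of 0.1 and 5, no filter and a filter at 5 TPM, quantile, trimmed-mean and nuclear protein-coding scaling, eBayes robust or without trend, only the 2 groups compared, a replicate block and each library left out.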

Additional observations from a re-analysis of the deposited data

How the results depend on the processing

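The fall of Cdk1 and the rises of Mos and Wee2 with growth, and the fall of Mos and Wee2 in PRC1 cKO, kept their direction and passed in each alternative run. The number of the 10 genes that passed with growth in PRC2 control was 5, and 8 with quantile, trimmed-mean or nuclear protein-coding scaling; with growth in PRC2 cKO it was 7, and 4 without the filter and with only the 2 groups compared. In PRC1 cKO it was 5, and 3 without the filter. With single libraries left out the numbers ran from 3 to 7, from 4 to 7 and from 2 to 5, and from 0 to 1 for the difference between stages. With the replicate number as a block the PRC1 number was 3 (0 higher, 3 lower), and the blocks left the PRC2 knockout numbers at 0, gave 6 with growth in control and 7 in cKO. Numbers of the PRC1 libraries deviated in opposite ways (correlation -0.268), and a crossed pairing, chosen after seeing the data, gave 8 genes and 9501 over all genes. Directions turned with quantile normalization for Fbxo43 (0.048) in non-growing PRC2 cKO, for Pde3a (-0.16), Wee2 (-0.057) and Fbxo43 (-0.19) in the difference between stages, and for Ccnb3 (-0.11) and Cdc25b (-0.086) in PRC1 cKO. With trimmed-mean scaling they turned for Fbxo43 (0.012) and Cdk1 (0.0010) in non-growing and Mos (-0.11) and Ccnb1 (-0.13) in growing PRC2 cKO, for Pde3a (-0.074), Wee2 (-0.23), Fbxo43 (-0.19), Ccnb1 (-0.0023) and Cdk1 (-0.26) in the difference, for Cdc25b with growth in control (0.057), and for Ccnb1 (-0.37), Cdk1 (-0.15) and Cdc25b (-0.094) in PRC1 cKO. With nuclear protein-coding scaling Pde3a (0.0092) and Ccnb2 (0.013) turned in growing PRC2 cKO. With single libraries left out, log2 differences crossed 0 in non-growing PRC2 cKO (Fbxo43 -0.49 to 0.28), in growing PRC2 cKO (Gpr3 -0.14 to 1.47, Pde3a -0.22 to 0.20, Wee2 -0.31 to 0.034, Mos -0.16 to 0.21, Fbxo43 -0.43 to 0.33, Ccnb1 -0.14 to 0.14, Ccnb2 -0.14 to 0.12, Cdc25b -0.023 to 0.52), in the difference (Pde3a -0.061 to 0.36, Wee2 -0.14 to 0.21, Fbxo43 -0.33 to 0.44, Cdk1 -0.11 to 0.11) and with growth in PRC2 cKO (Ccnb2 -0.085 to 0.14, Cdc25b -0.23 to 0.31). The cause was not tested in any of these. Over all genes the calls ran from 10 to 91 in non-growing and 1 to 50 in growing PRC2 cKO, 3 to 842 for the difference and 2953 to 9501 in PRC1 cKO. Gpr3 and Ccnb3 in the PRC2 table and Ccnb3 in the PRC1 table have no value with the filter at 5 TPM, and the difference between stages has none with only 2 groups. With 2 libraries a group and unknown depth, differences of genes near 1 TPM could not be measured closely.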
